A study of Mus musculus with 4 samples.

Results

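The oligodendrocyte lineage and myelin genes comprised Pdgfra, Cspg4, Olig1, Olig2, Sox10, Gpr17, Mbp, Cnp and Mog. They were taken as a named list, and each gene was read through every non-control array probe whose RefSeq accession belonged to it. This gave 9 genes and 11 probes, out of 20660 named genes and 55681 probes on the array. The study asked how exposure to titanium dioxide nanoparticles (TiO2-NP) before birth alters mRNA in the brain of newborn mice. Pregnant C57BL/6J mice received 25 µL into the trachea of a TiO2-NP suspension, 100 µg per mouse (TiO2-H), or of vehicle (Sham). The protocol placed this on gestational day 10.5, whereas the sample descriptions named day 14. Whole brains of the offspring were collected on postnatal day 1, and the labels name no transgene or deletion. For each exposure and labelled sex (Sham male and female, TiO2-H male and female), RNA of 2 offspring from each of 5 Sham dams or 6 TiO2-H dams was pooled and hybridized to 1 one-color array, so that no array held a single animal.

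Oligodendrocytes are the cells that wrap axons of the central nervous system in myelin. They arise from precursor cells that carry the receptor PDGFRA and the proteoglycan NG2, pass through a committed stage marked by GPR17, and then make the proteins of compact myelin. In the newborn mouse brain most cells of the lineage are still precursors, and myelination of the forebrain follows later.

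All 4 arrays lay on 1 slide, with the Sham arrays in row 1 and the TiO2-H arrays in row 2, so that exposure, litters and slide row cannot be told apart. Of the spots that were not controls, 56.2% to 61.2% were well above background, and no spot was saturated. The sex labels of the TiO2-H arrays went against sex-linked RNA. Xist, the RNA of the inactive X chromosome, had a processed signal of 347 on the array labelled TiO2-H male but stayed near background on the one labelled TiO2-H female. Eif2s3y, a Y-linked gene, had a signal of 4345 on the array labelled TiO2-H female but stayed near background on the one labelled TiO2-H male. On the Sham female array Xist was at 276, and Eif2s3y was at 419 beside 3519 on the Sham male array. The comparison of exposures therefore used both pools of each exposure without sex as a term, and single pairs of arrays are named by their labels.

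Levels are given as relative signal, the processed signal divided by the 75th percentile of its array, and levels of different probes are not set against each other. The sums over marker probes below add such levels, so that the brightest probes weigh most in them. Differences are on the log2 scale, TiO2-H minus Sham. With 2 pools per exposure, limma was fitted across all 35625 probes that were well above background on at least 1 array. The p-values measure only the spread between these pools, which differ in labelled sex. For each probe limma drew that spread toward a value estimated from all tested probes, so a probe's SE is not its own spread alone.

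None of the 11 probes passed an adjusted p of 0.05 (limma, Benjamini-Hochberg), and neither did any other probe on the array (0%). All 11 were well above background on all 4 arrays. Both TiO2-H arrays lay above both Sham arrays for 3 of them (27.3%), those of Pdgfra, Cspg4 and Olig1, where 28.9% of the 29406 probes well above background on every array did so. Both TiO2-H arrays lay below both Sham arrays for 0 of the 11, where 25.8% of all such probes did. The remaining 8 probes, those of Olig2, Sox10, Gpr17, Mbp, Cnp and Mog, overlapped between exposures. At an unadjusted p of 0.05, 1 of the 11 probes (9.09%) was called, that of Olig1, beside 13.9% of all probes tested. The median difference over the 11 probes was 0.01, equal to the median of 0.01 over all probes well above background on every array. Adjusted p-values of the 11 probes ranged from 0.351 to 0.982 (limma). The share of member probes that lay higher on both TiO2-H arrays was thus close to that of the array as a whole.

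**Figure D1:**
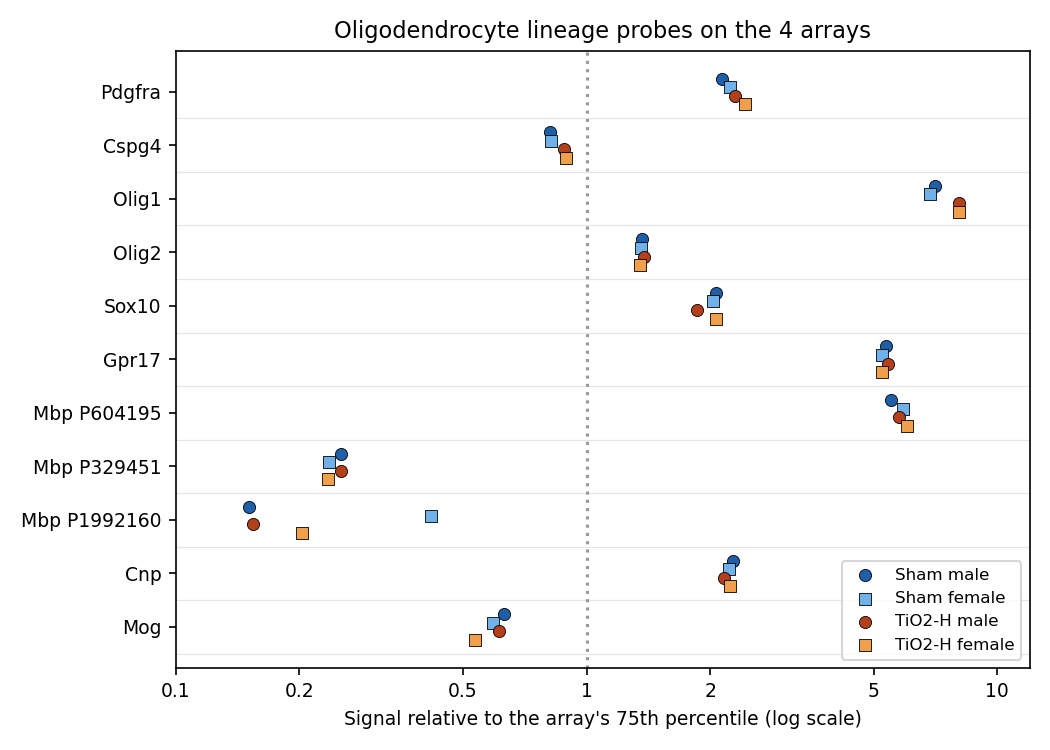
Relative signal of the 11 probes (log axis, multiples of the array's 75th percentile, dotted line at 1), with 1 point for each of the 4 arrays. Pdgfra, Cspg4 and Olig1 have both TiO2-H points to the right of both Sham points, the other probes overlap, and the Sham female point of Mbp probe A_55_P1992160 stands apart at 0.419.

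The 250 bases before the annotated start of 3 members are shown, namely Cspg4 of the precursors, the transcription factor gene Olig2, and Mog of mature myelin. Cspg4 was separated between exposures and the other two were not, so that they set a member with separated arrays beside members without. The sequences are RefSeq sequences of build GRCm38.p6, written 5′ to 3′ in the direction of transcription, at chr9:56864854-56865103 on the plus strand for Cspg4, chr16:91225300-91225549 on the plus strand for Olig2 and chr17:37023399-37023648 on the minus strand for Mog. Capitals mark matches, on either strand, to the GC box GGGCGG, the TATA box TATAAA, the Sox cores ACAATG and ACAAAG, and the E-box CANNTG that proteins such as Olig2 can bind.
Cspg4: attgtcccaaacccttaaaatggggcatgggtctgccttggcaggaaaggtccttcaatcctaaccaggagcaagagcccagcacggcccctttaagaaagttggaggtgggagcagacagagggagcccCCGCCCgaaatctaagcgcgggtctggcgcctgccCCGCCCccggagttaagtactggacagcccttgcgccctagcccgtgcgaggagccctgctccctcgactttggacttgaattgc
Olig2: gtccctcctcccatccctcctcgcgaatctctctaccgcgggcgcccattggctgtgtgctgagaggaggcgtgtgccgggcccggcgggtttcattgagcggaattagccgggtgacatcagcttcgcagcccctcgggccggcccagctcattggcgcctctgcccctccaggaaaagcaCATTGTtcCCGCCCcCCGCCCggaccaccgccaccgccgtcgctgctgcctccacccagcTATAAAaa
Mog: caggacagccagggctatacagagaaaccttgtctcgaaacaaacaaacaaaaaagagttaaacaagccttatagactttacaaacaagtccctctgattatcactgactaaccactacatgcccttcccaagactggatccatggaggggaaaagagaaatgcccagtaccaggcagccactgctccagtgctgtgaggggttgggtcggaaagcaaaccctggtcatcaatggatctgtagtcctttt
The Cspg4 window held 2 GC boxes, starting 120 and 85 bases before the start. The Olig2 window held 2 GC boxes at 60 and 53 bases, 1 ACAATG core at 68 bases and 1 TATA box at 8 bases before the start, and the Mog window held no match. Over 32851 promoters of the same length, 32.7% held a GC box, 12.4% the TATA box, 10.7% ACAATG, 16.5% ACAAAG and 66.2% an E-box. These matches describe the letters of the windows and were tested against no measurement.

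Pdgfra encodes the receptor for platelet-derived growth factor that keeps oligodendrocyte precursors dividing. Its probe A_51_P345649 (NM_011058) had a relative signal of 2.13 on the Sham male, 2.24 on the Sham female, 2.30 on the TiO2-H male and 2.43 on the TiO2-H female array. Both TiO2-H arrays were the higher, but the lower of them was only slightly above the Sham female array. The difference was 0.11 (SE 0.058, 95% interval -0.06 to 0.29), a 1.08-fold ratio, with an adjusted p of 0.446 (limma). The pairs as labelled differed by 0.11 (male) and 0.12 (female), and with the TiO2-H arrays crossed by 0.19 against Sham male and 0.04 against Sham female. Without the TiO2-H female array the difference was 0.07. The array carries this probe on 10 spots, which show the spread of the measurement within an array. They ran from 1.97 to 2.30 (median 2.14) on the Sham male array, from 2.06 to 2.43 (median 2.23) on the Sham female array, from 2.14 to 2.40 (median 2.30) on the TiO2-H male array and from 2.23 to 2.60 (median 2.47) on the TiO2-H female array. The spots of all 4 arrays overlapped in range, and those of 1 array are repeat readings of 1 pool.

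Pdgfra mRNA is also made by fibroblasts of the meninges. The summed relative signal of 6 probes of such fibroblasts (Col1a1, Col1a2, Col3a1, Dcn, Lum and Aldh1a2), all well above background on every array, was 25.5 and 25.2 on the male and female Sham arrays, against 26.7 and 27.3 on the arrays labelled TiO2-H male and female. For 5 of these 6 probes (83.3%) both TiO2-H arrays were above both Sham arrays, and for 1 (16.7%) both were below. Of all probes well above background on every array, 28.9% lay above and 25.8% below. Their part in the Pdgfra values was not tested. In whole brain, more or fewer cells of a type and more or less RNA per cell cannot be told apart.

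Cspg4 encodes the core protein of NG2, the proteoglycan on the surface of the precursors. Its relative signal (A_51_P160824, NM_139001) was 0.815 on the Sham male, 0.819 on the Sham female, 0.881 on the TiO2-H male and 0.893 on the TiO2-H female array. The arrays of each exposure lay close together and the exposures did not overlap. The difference was 0.12 (SE 0.041, 95% interval -0.01 to 0.24), a 1.09-fold ratio, with an adjusted p of 0.364 (limma). Among all probes tested, 45.4% had a difference at least as far from 0. NG2 also marks pericytes of brain capillaries. The 6 pericyte probes (Pdgfrb, Rgs5, Kcnj8, Abcc9, Anpep and Vtn), well above background on every array, summed to 7.69 and 7.24 on the male and female Sham arrays, against 7.34 and 7.54 on the arrays labelled TiO2-H male and female. That sum overlapped between exposures. The overlap rested on Anpep, which was at 1.15 on the Sham male and 0.791 on the Sham female array. On the arrays labelled TiO2-H male and female Anpep was at 0.762 and 0.785. Vtn alone made up 4.96 and 4.84 of the sum on the Sham arrays and 4.85 and 5.06 on the TiO2-H arrays. Both TiO2-H arrays were above both Sham arrays for 2 of the 6 probes (33.3%) and below for 1 (16.7%). Of all probes well above background on every array, 28.9% lay above and 25.8% below.

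**Figure D2:**
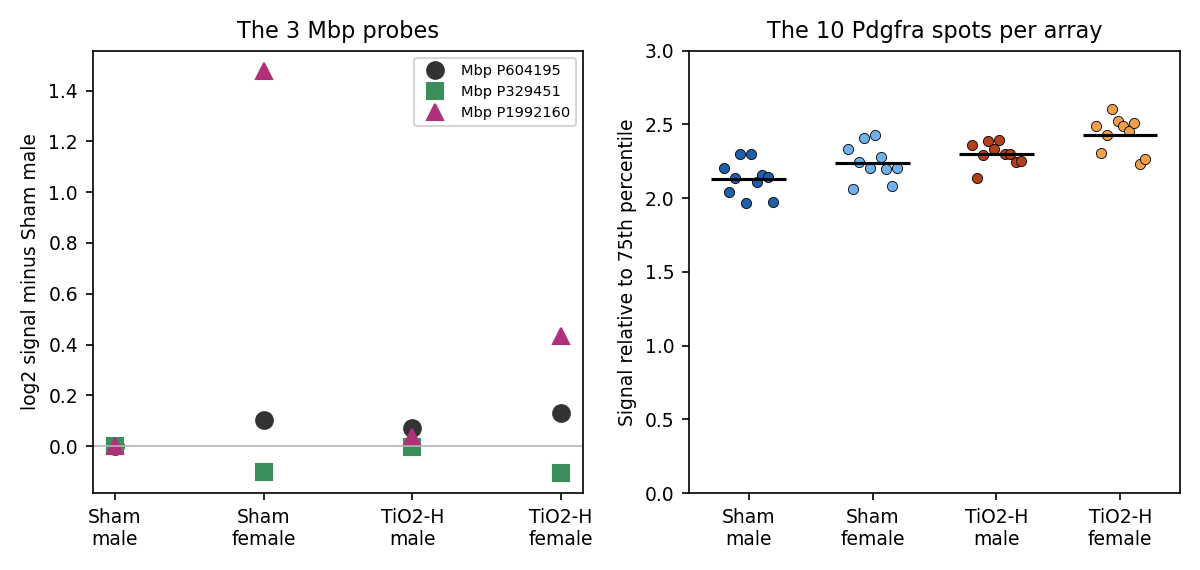
Left, log2 relative signal of the 3 Mbp probes minus the Sham male array (points, 1 per array), where A_55_P1992160 reached 1.48 on the Sham female array and the other two probes stayed within 0.13 of 0. Right, the relative signal of the 10 Pdgfra spots on each array (points) with the array's mean (line), from 1.97 to 2.30 on Sham male and from 2.23 to 2.60 on TiO2-H female.

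Among the transcription factors, Olig1 had the member probe with the smallest p. Olig1 encodes a basic helix-loop-helix protein of the lineage that takes part in maturation of the cells. Its relative signal (A_52_P603038, NM_016968) was 7.05 on the Sham male, 6.87 on the Sham female, 8.05 on the TiO2-H male and 8.08 on the TiO2-H female array. The exposures did not overlap, and the arrays within an exposure were closer to each other than to any array of the other. The difference was 0.21 (SE 0.043, 95% interval 0.08 to 0.34), a 1.16-fold ratio (95% interval 1.06 to 1.27), with an unadjusted p of 0.013 and an adjusted p of 0.351 (limma). It was the only member whose interval left out 0. The labelled male pair differed by 0.19 and the labelled female pair by 0.23. Among all probes tested, 23.8% had a difference at least as far from 0, and 16.6% of those well above background on every array.

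Olig2 encodes the related factor without which the lineage does not form. It was at 1.36 on the Sham male, 1.36 on the Sham female, 1.38 on the TiO2-H male and 1.35 on the TiO2-H female array (A_52_P223626, NM_016967). The Sham arrays lay between the TiO2-H arrays. The difference was 0.01 (95% interval -0.13 to 0.14) with an adjusted p of 0.957 (limma). Olig1 and Olig2 are neighbouring genes, and the contrast between their values is given as a description, since the difference of the differences was not tested.

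Sox10 encodes the factor that switches on myelin genes in oligodendrocytes and in Schwann cells of peripheral nerve. Its relative signal (A_55_P2094729, NM_011437) was 2.07 on the Sham male, 2.03 on the Sham female, 1.86 on the TiO2-H male and 2.06 on the TiO2-H female array. The array labelled TiO2-H male was the lowest, and the other three lay together. The difference was -0.06 (95% interval -0.28 to 0.16), with an adjusted p of 0.682 (limma), and it was 0.05 where the arrays were not scaled. Schwann cell probes well above background (Pmp22, Prx and Foxd3, 4 probes) summed to 3.23 and 3.11 on the male and female Sham arrays, against 3.33 and 3.35 on the arrays labelled TiO2-H male and female, while no array detected Pmp2 or Cdh19 well above background. For 2 of the 4 probes (50%) both TiO2-H arrays were above both Sham arrays, and for 0 both were below. Of all probes well above background on every array, 28.9% lay above and 25.8% below. The part of Schwann cells in the values of Sox10 and of the myelin genes was not tested.

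Gpr17 encodes a receptor of the committed, not yet myelinating stage, which acts as a brake on maturation. Its relative signal (A_51_P170463, NM_001025381) was 5.35 on the Sham male, 5.25 on the Sham female, 5.41 on the TiO2-H male and 5.25 on the TiO2-H female array. The arrays labelled male were the higher in both exposures, and the exposures overlapped. The difference was 0.01 (95% interval -0.13 to 0.15), with an adjusted p of 0.938 (limma).

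**Figure D3:**
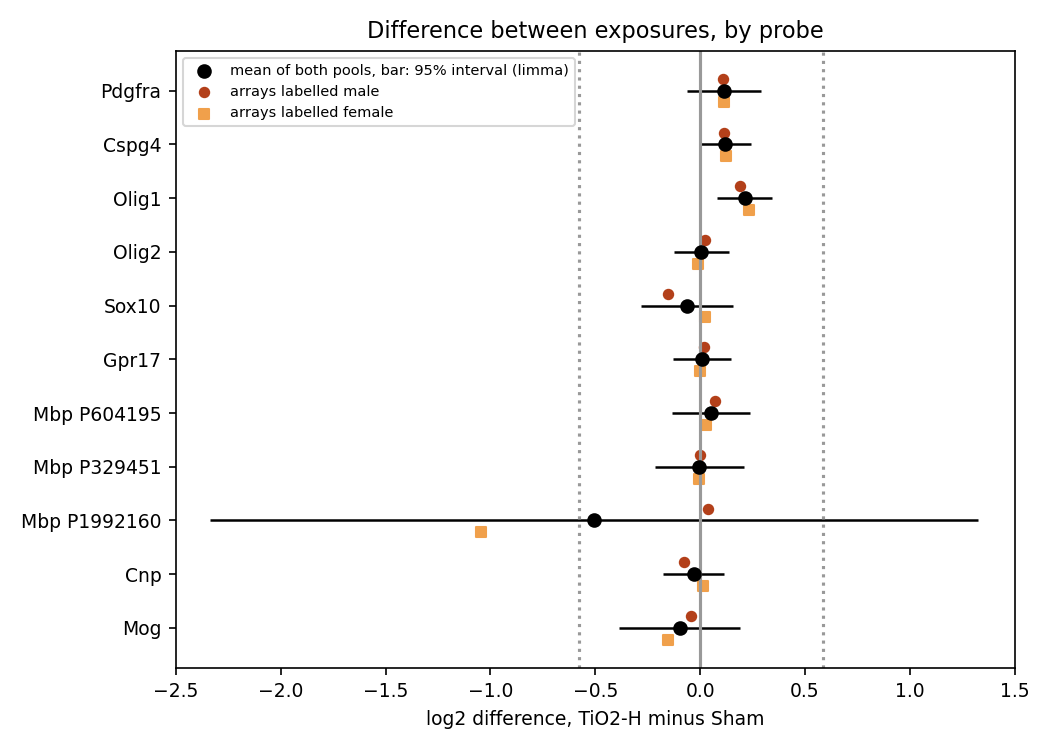
Log2 difference, TiO2-H minus Sham, for the 11 probes, as the mean over both pools with its 95% interval from limma (black), and for the pairs of arrays labelled male (circles) and female (squares), with dotted lines at 1.5-fold and 0.67-fold. The interval of Olig1, 0.08 to 0.34, is the only one without 0, and Mbp probe A_55_P1992160 has the widest, -2.34 to 1.33.

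Mbp encodes myelin basic protein, which holds the layers of the myelin sheath together, and 3 probes read it. The probe of NM_001025245, A_52_P604195, was at 5.50 on the Sham male, 5.90 on the Sham female, 5.78 on the TiO2-H male and 6.02 on the TiO2-H female array. The labelled female array was the higher in each exposure and the exposures overlapped, with a difference of 0.05 (95% interval -0.14 to 0.24) and an adjusted p of 0.702 (limma). A_52_P329451, a probe of NM_010777, was at 0.253 on the Sham male, 0.236 on the Sham female, 0.253 on the TiO2-H male and 0.235 on the TiO2-H female array. Here the labelled male arrays were the higher. The exposures overlapped with a difference near 0 (95% interval -0.22 to 0.21, adjusted p = 0.982, limma).

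The other probe of NM_010777, A_55_P1992160, was at 0.151 on the Sham male, 0.419 on the Sham female, 0.154 on the TiO2-H male and 0.203 on the TiO2-H female array. The Sham female array stood apart from the other three, and neither of the other Mbp probes was high on it to that degree. The difference was -0.50 (SE 0.601, 95% interval -2.34 to 1.33), with an adjusted p of 0.695 (limma). Without the Sham female array it was 0.23. The pair labelled male differed by 0.04 and the pair labelled female by -1.04 (0.485-fold), while the Sham female array exceeded the Sham male array by 1.48. The differences of the 3 probes from Sham to TiO2-H did not share a direction, but all 3 intervals held 0 and overlapped one another.

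Cnp encodes an enzyme of the cytoplasm of myelin-forming cells that appears early in their maturation. Its relative signal (A_51_P232901, NM_009923) was 2.28 on the Sham male, 2.22 on the Sham female, 2.16 on the TiO2-H male and 2.24 on the TiO2-H female array. The exposures overlapped, with a difference of -0.03 (95% interval -0.18 to 0.11) and an adjusted p of 0.757 (limma), and of 0.08 where the arrays were not scaled. Mog encodes a glycoprotein of the outermost layer of the sheath and is among the last myelin genes to be switched on. Its relative signal (A_66_P123582, NM_010814) was 0.631 on the Sham male, 0.593 on the Sham female, 0.613 on the TiO2-H male and 0.534 on the TiO2-H female array. The array labelled TiO2-H female was the lowest and the exposures overlapped. The difference was -0.10 (95% interval -0.39 to 0.19), with an adjusted p of 0.635 (limma), and it was 0.02 where the arrays were not scaled. The Mog probe was well above background on every array.

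By the 1.5-fold and 0.67-fold thresholds of the study, applied to single pairs of arrays with no replicate check, 0 of the 11 probes reached 1.5-fold on the arrays labelled male, where 4.08% of all probes compared did, and 0 fell to 0.67-fold or less, where 3.28% did. On the arrays labelled female 0 of 11 reached 1.5-fold (2.65% of all probes) and 1 of 11 (9.09%) was at 0.67-fold or less (3.31% of all probes), the Mbp probe A_55_P1992160. The same probe was the only member past either threshold between the Sham female and the Sham male array, a pair without exposure, where 3.17% of all probes reached 1.5-fold and 3.15% were at 0.67-fold or less. The scanner software gave an error of about 0.20 for the log2 ratio of a bright member between 2 arrays. On the 10 spots of Pdgfra the measured SD within an array was 0.05 to 0.08. The labelled sexes gave the same sign for 6 of the 11 probes, and with the TiO2-H arrays crossed the pairs did so for 5.

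Other genes of the lineage were read from 5 lists with 67 genes and 103 probes, of which 58 genes had a probe that was tested. None of their 89 tested probes passed an adjusted p of 0.05, and 12 (13.5%) had an unadjusted p below 0.05 (limma), beside 13.9% of all probes tested. Of the 86 probes well above background on every array, both TiO2-H arrays lay above both Sham arrays for 39 (45.3%) and below for 17 (19.8%), beside 28.9% and 25.8% of all probes. Several probes of 1 gene read the same RNA and are not independent.

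Among 9 other precursor genes, 10 of 14 such probes (71.4%) had both TiO2-H arrays above both Sham arrays. For 1 of the 14 (7.14%) both were below. The shares over all probes well above background on every array were 28.9% above and 25.8% below. The median difference of the 14 probes was 0.23. An unadjusted p below 0.05 (limma) was reached by 6 of the 16 tested probes (37.5%, beside 13.9% of all probes). The 10 probes belonged to Ptprz1, Lhfpl3, Pcdh15, Matn4, Vcan and Tnr, which are named here because of their values, and 4 of them read Pcdh15 alone. The probe with both below was that of C1ql1, with 0.227 and 0.234 on the male and female Sham arrays. The arrays labelled TiO2-H male and female were at 0.196 and 0.207. C1ql1 differed by -0.19 and was 1 of the 6 probes with an unadjusted p below 0.05 (limma). Tnr, a tenascin of the extracellular matrix, had the largest mean difference of the 14 probes. It was at 0.213 on the Sham male, 0.190 on the Sham female, 0.406 on the TiO2-H male and 0.261 on the TiO2-H female array. Its difference was 0.69, with an adjusted p of 0.377 (limma), and it was 0.37 without the TiO2-H male array and 1.01 without the TiO2-H female array. The pairs as labelled differed by 0.93 (male) and 0.45 (female), and with the TiO2-H arrays crossed by 0.29 against Sham male and 1.09 against Sham female, so that the order of the sexes turned. Ptprz1, a receptor phosphatase of precursors and radial glia, had relative signals of 10.2, 10.4, 12.3 and 13.4 at one probe (A_51_P206405) and of 10.8, 10.9, 13.1 and 13.0 at the other (A_55_P2000439), each with the Sham arrays first and the labelled male before the labelled female array. Both probes separated the exposures, by 0.32 and 0.27, each with an adjusted p of 0.351 (limma). Pcdh15, a cadherin of precursors, differed by 0.36 at the probe A_55_P2176181 (adjusted p = 0.356, limma). This probe was dim, with relative signals from 0.070 on the Sham male to 0.102 on the TiO2-H female array. Its difference was 0.19 after normexp background correction. The other tested probes of the gene differed by 0.26 (A_55_P2176185), 0.19 (A_55_P2176176) and 0.33 (A_55_P2176175).

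Ptprz1 is also a gene of radial glia and astrocytes, and Vcan and Tnr are made by other cells as well. The 9 probes of radial glia and astrocytes (Slc1a3, Fabp7, Aldh1l1, Aqp4, Gfap and Vim), well above background on every array, summed to 142.7 and 133.8 on the male and female Sham arrays, against 147.5 and 149.7 on the arrays labelled TiO2-H male and female. Fabp7 alone made up 91.9 and 82.7 of this sum on the Sham arrays and 97.6 and 99.5 on the TiO2-H arrays. The rest of the sum was slightly lower on both TiO2-H arrays than on both Sham arrays. Both TiO2-H arrays were above both Sham arrays for 4 of the 9 probes (44.4%) and below for 2 (22.2%). Of all probes well above background on every array, 28.9% lay above and 25.8% below. Their part in the values of the precursor list was not tested.

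Of 15 other transcription factors of the lineage, 9 of 20 probes (45.0%) lay higher and 5 (25.0%) lower on both TiO2-H arrays. Their median difference was 0.05. The shares over all probes well above background on every array were 28.9% higher and 25.8% lower. Nkx2-2, a homeodomain factor of precursors and early oligodendrocytes, had lower relative signals on the TiO2-H arrays at the probe A_55_P1985905, with 0.408 on the Sham male, 0.405 on the Sham female, 0.342 on the TiO2-H male and 0.355 on the TiO2-H female array. Its difference was -0.22, with an adjusted p of 0.351 (limma). At its other probe, A_55_P1985911, the values were 0.574, 0.968, 0.563 and 0.572 in the same order, so that the difference of -0.39 (adjusted p = 0.555, limma) came with a high Sham female array. Sox8, a relative of Sox10, differed by -0.17, and Sox9, which acts before Sox10 in glia, by -0.08, the latter turning to 0.03 where the arrays were not scaled. Myrf, the factor that drives myelin genes in maturing cells, was detected well above background by none of the 4 arrays.

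Of 7 other genes of the committed stage, 1 of 7 probes (14.3%) lay higher and 3 (42.9%) lower on both TiO2-H arrays. Their median difference was -0.06. The shares over all probes well above background on every array were 28.9% higher and 25.8% lower. Bcas1, a marker of early myelinating cells, differed by 0.03, and Enpp6, a marker of newly formed oligodendrocytes, was not detected either. Of 21 other myelin genes, 13 of 28 probes (46.4%) lay higher and 3 (10.7%) lower, beside the same 28.9% and 25.8%. Their median difference was 0.06. Mag, an adhesion protein of the innermost myelin layer, was at 0.671 on the Sham male, 0.615 on the Sham female, 0.680 on the TiO2-H male and 0.673 on the TiO2-H female array and differed by 0.08. The probes of Mobp, another protein of compact myelin, differed by 0.19 (A_51_P291224) and 0.25 (A_55_P1958798), the former turning to -0.04 after normexp background correction.

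The 15 ligands and receptors of the lineage had a median difference of 0.00 over 17 probes. Of these, 6 (35.3%) lay higher and 5 (29.4%) lower on both TiO2-H arrays. The shares over all probes well above background on every array were 28.9% higher and 25.8% lower. The probes of Pdgfa, the ligand of the receptor that Pdgfra encodes, differed by 0.04 (A_55_P2007470) and 0.01 (A_55_P2125588). Fgfr3, a receptor of fibroblast growth factors, had the lowest of its list at the probe A_65_P06147, with a difference of -0.25 and an adjusted p of 0.353 (limma). At its other probe, A_55_P1996578, the difference was -0.10 (adjusted p = 0.442, limma). There the Sham male and female arrays were at 4.76 and 4.94, and the TiO2-H male and female arrays at 4.45 and 4.61. The 9 listed genes with no probe well above background on any array were Neu4, Myrf, Enpp6, Opalin, Shh, Erbb3, Erbb4, Fgf2 and Lif.

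**Figure D4:**
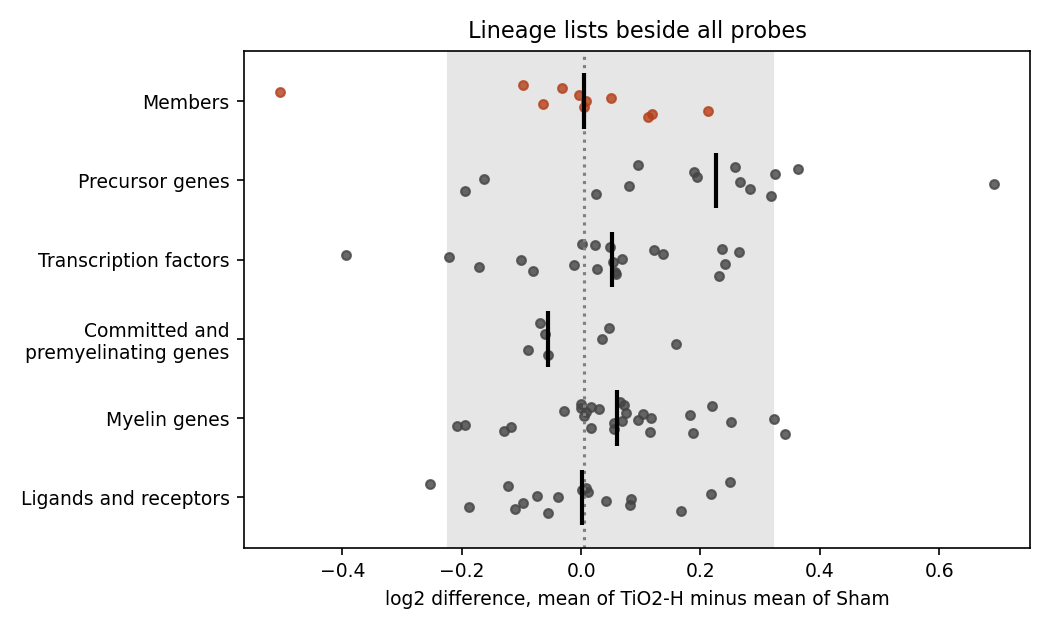
Log2 difference, mean of TiO2-H minus mean of Sham, for every probe well above background on all 4 arrays in the member set and in 5 other lineage lists (points, with the median as a line), over the band that holds the 5th to 95th percentile of all such probes, -0.22 to 0.32 (dotted line, median of all probes). The precursor list has the highest median, 0.23, and the members' median is 0.01.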

How the data were processed

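Pooled brain RNA of newborn mice was hybridized to 4 one-color Agilent arrays of 62976 spots, 1 pool per exposure (Sham, TiO2-H) and labelled sex. The authors deposited the scanner output and a value table, both as intensity made with Feature Extraction (version 10.10.1.1), whose processed signal is background-subtracted and detrended. The table equalled the processed signal within 0.01% for all 59305 non-control spots, so that its values are linear, unscaled and not centred. No deposited column was left without a sample (0).

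Log2 processed signal was scaled to the 75th percentile of each array (810 and 795 for Sham male and female, 867 and 871 for TiO2-H male and female). Spots marked as outliers (138 to 181 per array) were left out and spots of a probe were averaged. Probes well above background on at least 1 array compared were kept, and a dim value was set to the higher of itself and the lowest signal well above background (23.3 to 31.7). The brightness of 4 arrays gives no count or depth, and their number limits the precision.

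Genes were named through RefSeq accessions of assembly GRCm38.p6. Of 37881 accessions on the array 56.7% matched, and of the 21887 with an NM or NR prefix 98.0% did. The array annotation is of an older build, so probe positions are not given. Promoters were found for 5 of the 9 members. Only windows whose start matched the gene model were read, and other sequences were not used here.

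Exposures were compared over both pools with limma 3.58.1 in R 4.3.3 (lmFit, eBayes, two-sided, Benjamini-Hochberg over all tested probes), and single pairs of arrays by the 1.5-fold and 0.67-fold thresholds without a test. Steps were tested on simulated data. Figures and motif searches used Python 3.11.15. Alternatives were no scaling, quantile normalization, normexp with an offset of 50, the deposited table, a filter on all arrays, no floor, no filter, outlier spots kept, the brightest probe of each accession, sex as labelled or crossed as a term, a trended prior variance, each array left out, crossed pairs, and thresholds of 2-fold and 0.5-fold. The files held no mean signal, so normexp was run on median signals.

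Every probe of a member was named. From the other lists, the genes named with values were those with a probe past the thresholds in both labelled sexes or with an adjusted p under 0.05, the 2 largest and 2 smallest mean differences over all lists, and Mag, Mobp, Nkx2-2, Sox8, Sox9, Myrf, Pdgfa, Ptprz1, Bcas1 and Enpp6. C1ql1 was added as the precursor probe well above background on every array that lay lower on both TiO2-H arrays. The members, lists and tests were chosen with earlier results of these data known, and their counts are not independent evidence. Marker lists of Schwann cells, pericytes, meningeal fibroblasts, astrocytes and radial glia, microglia, neurons and blood were read beside them. Some listed genes are not reported here.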

Additional observations from a re-analysis of the deposited data

Results flagged for a closer look

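For 5 of the 11 probes the arrays labelled male and female differed in opposite directions between TiO2-H and Sham. With 1 array per group the difference between the labelled sexes was not tested, and the sex labels of the TiO2-H arrays are in doubt. The log2 difference of the labelled female pair minus that of the labelled male pair was -0.032 for Olig2, 0.18 for Sox10, -0.017 for Gpr17, 0.090 for Cnp and -1.08 for the Mbp probe A_55_P1992160. With the TiO2-H arrays crossed, 6 probes had opposite signs. Sox10 (-0.0021 and -0.13) and Cnp (-0.024 and -0.039) then shared a sign, while Mog (-0.24 and 0.05), Mbp A_52_P604195 (0.13 and -0.03) and Mbp A_52_P329451 (-0.11 and 0.10) did not, each with the pair against Sham male first. The value of A_55_P1992160 came with the Sham female array, which was at 0.419 beside 0.151 to 0.203 on the other arrays, and neither of the other Mbp probes shared it.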

How the results depend on the processing

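No member passed an adjusted p of 0.05 (limma) under any alternative run, and the lowest were 0.148 for Olig1, 0.160 for Cspg4 and 0.176 for Pdgfra. The differences of these genes kept their direction in the 7 alternatives that changed member values. The other 9 left every member difference as it was. The differences ran from 0.19 to 0.33 for Olig1, 0.03 to 0.23 for Cspg4 and 0.07 to 0.23 for Pdgfra. Because both TiO2-H arrays lay above both Sham arrays for these genes, leaving out an array could not turn their direction. Nor could leaving out the scaling, which moved the difference of every probe upward. Only quantile normalization and normexp could have turned it. Without scaling, the median of all probes moved to 0.12 and the share of probes higher on TiO2-H from 50.1% to 78.5%. Every difference moved by the same amount, so a value that turned positive could only end below that shift. Those values were 0.083 for Cnp, 0.11 for Mbp A_52_P329451, 0.017 for Mog, 0.051 for Sox10 and 0.034 for Sox9. Quantile normalization gave 0.0058 for Mbp A_52_P329451. After normexp, Cnp was at 0.0059, Mbp A_52_P329451 at 0.11 and Mobp A_51_P291224 at -0.038. Both TiO2-H arrays lay above both Sham arrays for 7 member probes without scaling and 5 after normexp, and below for 1 after normexp. The share of all probes that did so was not counted under these settings. These counts can therefore not be set beside the array as a whole. The cause of the changes was not tested.

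Leaving out each array in turn gave 3 to 5 member probes above and 1 to 4 below. Shares over all probes were not counted for these fits. With fewer arrays, separation is easier to reach. The count above was 5 without Sham female and without TiO2-H female, and the count below was 4 without Sham female and without TiO2-H male. The differences ran from -0.015 to 0.030 for Gpr17, from -0.055 to 0.048 for Mbp A_52_P329451, from -0.00056 to 0.10 for Mbp A_52_P604195, from -1.24 to 0.23 for Mbp A_55_P1992160, from -0.20 to 0.0018 for Mog, from -0.014 to 0.025 for Olig2, from -0.14 to 0.012 for Sox10 and from -0.039 to 0.055 for Pdgfa A_55_P2125588. In the 7 alternatives that changed member values, 16 of 77 member values turned their sign. The part of low signal in the values of the dim Mbp probes was not tested, and 1 array per pool leaves no estimate of error within a group.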

Other observations

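Markers of cells outside the lineage were read on the same arrays. Microglia probes (Cx3cr1, Csf1r, P2ry12, Aif1 and Tmem119, 8 probes) summed to a relative signal of 14.3 and 13.9 on the male and female Sham arrays and to 15.3 on both TiO2-H arrays, with both TiO2-H arrays above both Sham arrays for 5 of the 8 and below for 1. Neuron probes (Tubb3, Stmn2, Snap25, Rbfox3 and Dcx, 9 probes) summed to 345.9 and 347.4 on the Sham arrays and to 342.2 and 354.8 on the TiO2-H arrays, with 4 above and 2 below. Of all probes well above background on every array, 28.9% lay above and 25.8% below.

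Blood was read by 2 probes, both lower on the TiO2-H arrays than on the Sham arrays. Of all probes well above background on every array, 25.8% were so. Hba-a1, an alpha globin gene of red blood cells, was at 61.3 on the Sham male, 58.9 on the Sham female, 50.4 on the TiO2-H male and 50.7 on the TiO2-H female array, a difference of -0.25. No probe was matched to Hbb-b1. The part of blood in the values of the lineage genes was not tested.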
